A study of Mus musculus with 8 samples.

Results

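The dorsal root ganglion of untreated mice was described from the 2 libraries labelled day 0, before any injection (0d), out of the 8 libraries of the series. They were the only libraries used here, and every gene of the table was measured in both. The mice were naive male C57BL/6J animals that carried no engineered allele and received no treatment. Their age is 8 weeks in the series description. The methods give a range that starts there and reaches older mice. The other 6 libraries came from mice that had received carrageenan in the left hind paw, and they are not analysed here. Each library held RNA of the left L3 to L5 ganglia, the ganglia of the hind paw, pooled from 2 to 3 mice, so replicate 1 and replicate 2 are pools and not single animals. The mice had been perfused through the heart with 5 to 10 mL of RNAlater, a fluid that stabilizes RNA, before dissection. Total counts were 52990278 in replicate 1 and 61297996 in replicate 2. A single count was worth 0.0189 and 0.0163 CPM, that is, counts per 1000000 counts of the library.

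A dorsal root ganglion lies beside the spinal cord and holds the cell bodies of the sensory neurons that carry touch, temperature, itch, pain and limb position to the cord. Each cell body is wrapped in satellite glia, and the large axons are insulated by Schwann cells, whose myelin is rich in proteins such as Pmp22 and Mbp. Capillaries, resident macrophages and a capsule of connective tissue complete the organ, and the neurons are commonly divided into peptide-rich and peptide-poor nociceptors, low-threshold mechanoreceptors and proprioceptors. By their labels the samples are DRG neurons. In transcripts per 1000000 (TPM), all 48 pan-neuronal genes reached a level of 1 in both libraries, but so were 19 of 20 glial genes, 18 of 18 myelin genes and 16 of 16 endothelial genes, so the libraries are read here as whole ganglia.

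Levels are given per length as TPM, that is, the counts of a gene divided by its exon length in the deposited table and scaled to the same total in each library. Gene levels are compared with each other on this scale only, whereas differences between the pools, and counts of genes higher in either pool, are taken from CPM on the log2 scale. There was a single group of 2 libraries, so no test was possible, and values are given for each library or as mean ± SD (n = 2). In a bulk sample such as this, fewer cells of a type and less RNA per cell cannot be told apart, and a share of RNA is not a share of cells.

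Of 24421 genes in the table, 18062 had at least 1 count in both libraries, 14861 reached 1 TPM in both, and 5016 had no count in either. For a gene without counts, the usual upper limit of 3 counts corresponds to 0.0566 CPM in replicate 1 and 0.0489 CPM in replicate 2. RNA was spread over many genes. The 895 genes of highest mean TPM held 50% of the total, the top 10 held 5.05% and 4.88% in replicates 1 and 2, and 92 genes exceeded a mean of 1000 TPM.

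With the deposited exon length, neurofilament light chain, Nefl, was the most abundant transcript of the ganglion, with 9264 TPM in replicate 1 and 8695 TPM in replicate 2. It encodes a subunit of the intermediate filaments that fill large axons, and its annotated exons cover 2001 bases on mouse chromosome 14 (mm10, chr14:68083884-68087737, plus strand).

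Uchl1, a ubiquitin hydrolase abundant in neurons, had 4911 and 5312 TPM. Sncg, a synuclein of sensory neurons, had 4718 and 5268 TPM. The tubulins Tubb3, the neuron-specific beta chain of microtubules, at 4281 and 4345 TPM and Tuba1a at 4003 and 4282 TPM followed. The ranges of Uchl1 and Sncg over the pools overlapped, as did those of Tubb3 and Tuba1a, so neither order was larger than the spread. Nefm, the middle neurofilament chain, had 4017 and 3594 TPM, and Apoe, a lipid carrier made by satellite glia, had 3834 and 3700 TPM. The range of Nefm overlapped with those of Tuba1a and Apoe. Tppp3, a tubulin-binding protein, had 3267 and 3535 TPM. Among the other genes of the first 25, Prph, Nefh, Ndrg4 and Ywhah are strongly expressed in neurons, Pmp22 is a myelin gene, and Fth1, Aldoa, Tmsb4x, Hsp90ab1, Hspa8, Eef1a1 and Ppia are expressed in nearly every cell. They lay between 2172 and 2912 TPM in single libraries. The first 25 genes together held 8.96% and 8.71% of TPM, and 8 of them belonged to the pan-neuronal list.

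**Figure D1:**
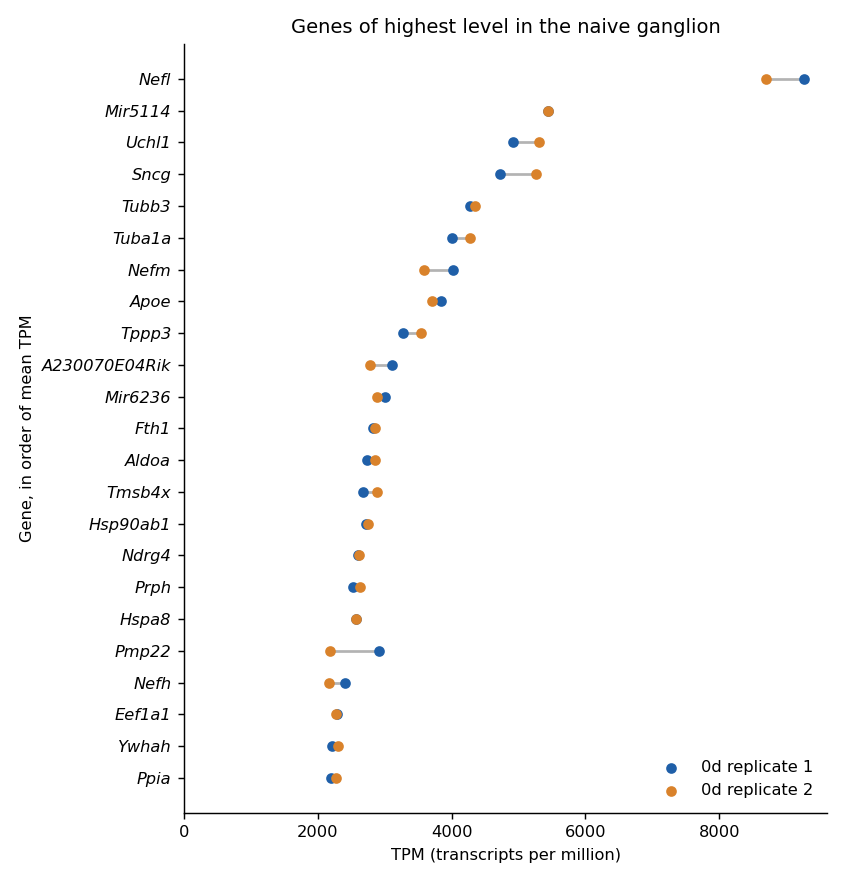
Genes among the 25 of highest mean TPM, on a linear axis that starts at 0, with a point for each 0d library and a grey line between the points of a gene. Nefl stands alone at 9264 and 8695 TPM, and Pmp22 shows a gap between the pools, with 2912 and 2177 TPM.

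Ranking by CPM, which favours long transcripts, put Map1b second. This microtubule-associated protein had 6978 and 5882 CPM, close to Nefl at 6958 and 6655 CPM, but 1569 and 1298 TPM, because its exons cover 11852 bases. Among the 10 genes of highest CPM were Nefl, Map1b, Nefm, Nefh, Ywhag, Ndrg4, Tubb3 and Scd2, the last a fatty acid desaturase. Only 4 of the first 10 by CPM were among the first 10 by TPM, and 14 of the first 25 were shared between both orders.

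For some entries near the top of the TPM order, the counts may not stand for a transcript of their own. Of the first 25 genes by TPM, Mir5114 and Mir6236 are annotated microRNA precursors of under 200 bases, and their mature sequences from RefSeq (GRCm38.p6) are shown because the annotation of those bases bears on what the counts can mean. Capitals mark the seed, bases 2 to 8, through which a microRNA pairs with its targets. The seeds differ.
mmu-miR-5114: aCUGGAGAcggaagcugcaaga
mmu-miR-6236: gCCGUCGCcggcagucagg
Mir5114 was listed at 5436 and 5443 TPM, which rested on 6595 and 7785 counts over only 61 bases (chr19:44303171-44303231, plus strand). All 61 bases lie inside the last exon of Scd2, and the mature part lies at the end of its coding sequence, which closes at base 44303197 before the untranslated region begins. The counting gave a read pair to every gene it touched, so pairs from Scd2, itself at 1375 and 1332 TPM, also counted for Mir5114, and the 2 sources cannot be told apart. Mir6236 was listed at 3009 and 2880 TPM over 123 bases of chromosome 9 (chr9:110281287-110281409, plus strand) that no other gene in the table shares. Its source was not tested. Genes of under 200 bases, 1291 in number, held 3.27% and 3.17% of all TPM but only 0.0968% and 0.0967% of counts. Among the 100 genes of highest TPM there were 7 such genes, 6 of them microRNA precursors, and 5 of the 7 shared at least 1 exon base with another gene. A similar case among longer genes was A230070E04Rik at rank 11, a non-coding gene that shares 58.2% of its exon length with Nefm. The counts ignored strand, so its level cannot be separated from that of Nefm.

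The neuronal list held far more of the RNA than any other marker list. Its 48 genes summed to 5.47% of TPM in replicate 1 and 5.45% in replicate 2 (5.46% ± 0.016, SD, n = 2). Myelin genes held 1.24% and 0.893%, and glial genes other than myelin held 0.723% and 0.692%. Immune genes held 0.140% and 0.154%, and blood genes held 0.0830% and 0.144%. As shares of counts, the neuronal genes made up 5.34% (95% Wilson interval 5.33 to 5.34) and 5.22% (5.21 to 5.22), the myelin genes 1.23% (1.23 to 1.23) and 0.909% (0.907 to 0.911), and the glial genes 0.587% (0.585 to 0.589) and 0.549% (0.548 to 0.551). The immune genes made up 0.0721% (0.0714 to 0.0728) and 0.0751% (0.0744 to 0.0758), and the blood genes 0.0357% (0.0352 to 0.0362) and 0.0561% (0.0555 to 0.0567). These intervals cover counting error only and are narrower than the gap between the pools for each of the 5 groups. Within a library the neuronal share was 7.56 and 7.88 times the glial share and 4.40 and 6.11 times the myelin share. The lists differ in length, so these ratios compare the lists and not the cell types. All 19 marker lists together held 8.25% and 7.80% of TPM, which leaves most of the transcriptome outside any list.

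**Figure D2:**
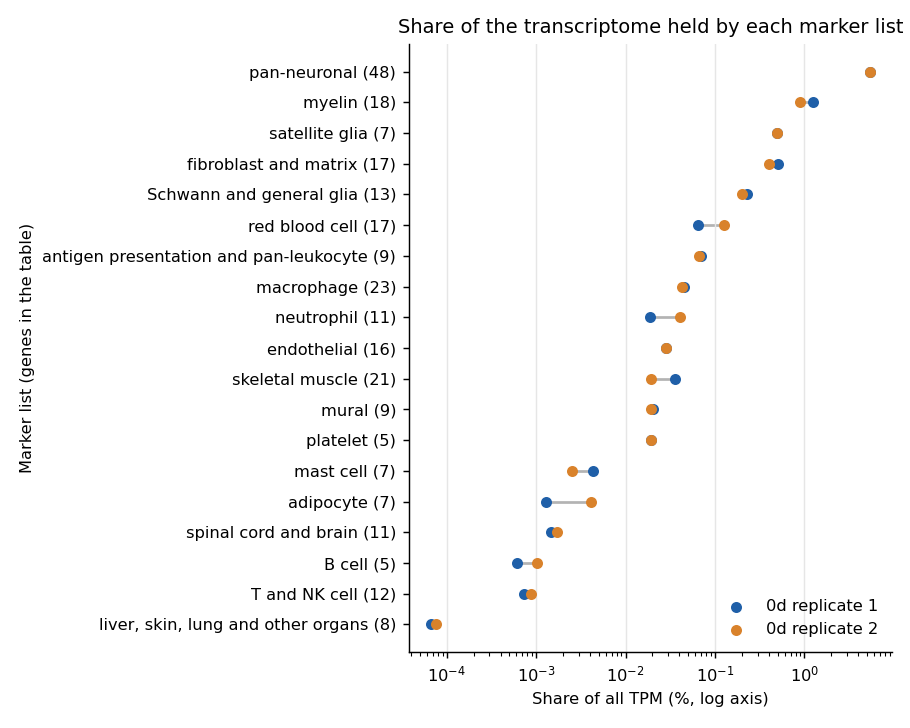
Share of all TPM held by each of 19 marker lists on a log axis, with the number of listed genes found in the table and one point for each 0d library. The pan-neuronal list lies at 5.47% and 5.45%, the lists for blood, neutrophils, muscle and fat show visible gaps between the pools, and the list for other organs lies lowest.

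Every neuronal gene was well above the detection limit. The 48 genes ran from Celf4, an RNA-binding protein, at a mean of 57.6 TPM to Nefl, with a median of 510 TPM, and 43 of them exceeded 100 TPM. Further down the list, Stmn2, a regulator of microtubule dynamics, had 2046 and 2071 TPM, and Snap25, a protein of vesicle fusion, had 1669 and 1597 TPM. The intermediate filament genes kept a steady proportion. Nefl made up 50.7% and 50.7% of the summed TPM of Nefl, Nefm, Nefh, Prph and Ina, Nefm a mean of 21.5%, Prph, the filament of small neurons, 13.9% and 15.3%, and Nefh, the heavy chain of large myelinated axons, 13.2% and 12.7%. Uchl1, Nefm, Nefh, Gng3, Nsg1 and Ina each share over 10% of their exon length with another gene, and without all genes of that kind the neuronal share was 4.72%.

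Apoe dominated the satellite glia list. It held 76.3% of the list's TPM, ahead of Fabp7, a fatty acid binding protein, at 516 and 603 TPM and Glul, the glutamine synthetase that clears glutamate, at 372 and 354 TPM. Kcnj10, the inward rectifier through which satellite glia take up potassium, had 51.3 and 52.0 TPM. Without Apoe, which macrophages also make, the glial share was 0.331% in place of 0.708%. Of the Schwann cell and general glial genes, S100b, a calcium-binding protein, stood highest with 811 and 802 TPM, before Gpm6b, the sodium channel gene Scn7a and Sox10, the transcription factor of the glial lineage, with 127 and 137 TPM. Gfap, a glial filament protein, was at only 0.432 and 0.880 TPM, on 35 and 84 counts.

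In the myelin list, Pmp22, a membrane protein of compact myelin, had 2912 and 2177 TPM. Mbp, which compacts the membrane layers, had 916 and 686 TPM, and Prx, a scaffold protein of myelinating Schwann cells, had 361 and 269 TPM. Cnp, an enzyme of non-compact myelin, had 233 and 215 TPM. All 18 myelin genes were higher in replicate 1, from Cmtm5 with a log2 difference of 0.01 to Egr2, the transcription factor that drives myelination, with 1.03, and their median was 0.40. Over all 14570 genes with a mean of at least 1 CPM, 6995 were higher in replicate 1 and 7575 in replicate 2. The median log2 difference over all of them was -0.01.

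Blood was present at a low level and differed between the pools. Hba-a1 had 108 and 210 TPM and Hbb-b1 had 169 and 339 TPM, both higher in replicate 2. Alas2, the first enzyme of heme synthesis in red cells, had 5.67 and 11.1 TPM, and the anion exchanger gene Slc4a1 had 3.07 and 6.98 TPM. Bpgm, an enzyme that makes the red cell metabolite which lowers the oxygen affinity of hemoglobin, was even between the pools at 25.3 and 23.5 TPM. The names Hbb-b1 and Hbb-bs, Hba-a1 and Hba-a2, and Hbb-b2 and Hbb-bt had identical counts within each pair. Each pair has over 98% of its exon length in common, so the same counts entered the sum under both names of a pair. With a single name kept for each pair, the blood share was 0.0690% in place of 0.114%, and the red cell and platelet genes summed to 532 and 844 TPM. In the platelet list, Gp1bb gave 86.7% of the TPM, with 165 and 167 TPM, and it shares 28.4% of its length with Sept5, a gene at 554 and 567 TPM. Pf4, a chemokine of platelet granules, had 17.2 and 14.1 TPM.

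Among the immune lists, antigen presentation and pan-leukocyte genes held most, with 0.0697% and 0.0664% of TPM. Macrophage genes followed with 0.0452% and 0.0426%, and the neutrophil list, described below, came close to them in replicate 2. Cd74, the invariant chain of MHC class II, had 246 and 227 TPM, and H2-Aa and H2-Ab1 had 113 and 101 TPM and 104 and 94.9 TPM. Coro1a had 141 and 149 TPM. This actin-binding protein is used as a leukocyte marker but is also known from neurons. Of the macrophage genes, Lyz2, a lysozyme shared with neutrophils, was highest with 127 and 136 TPM. The complement genes C1qa, C1qb and C1qc followed at 36.1 to 48.9 TPM, and all 23 macrophage genes reached 1 TPM in both libraries, down to Trem2 at 1.97 and 1.90 TPM. Of the lymphocyte genes analysed here, which do not include the immunoglobulin genes of the B cell list, the highest were the B cell receptor gene Cd79a with 2.65 and 3.82 TPM and its partner Cd79b with 2.27 and 4.13 TPM. Cd3e, part of the T cell receptor complex, had 0.385 and 0.772 TPM on 11 and 26 counts. The 12 T and NK cell genes summed to 0.000730% and 0.000880% of TPM.

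Neutrophil genes held 0.0190% of TPM in replicate 1 and 0.0407% in replicate 2. S100a9, a calcium-binding protein of neutrophil cytoplasm, had 67.2 and 162 TPM, S100a8, its partner, had 43.9 and 84.9 TPM, and the granule gene Ngp had 27.7 and 56.5 TPM. All 10 neutrophil genes with a mean of at least 1 CPM were higher in replicate 2, beside 7575 of all 14570 genes tested. Mast cell genes went the other way. All 4 with a mean of at least 1 CPM were higher in replicate 1, but only 2 of them by over 1.5-fold. Mcpt4, a granule protease, had 15.1 and 6.63 TPM, and Tpsab1 had 22 counts against 1.

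Connective tissue genes held 0.504% and 0.398% of TPM. Apod, a lipocalin of endoneurial fibroblasts and Schwann cells, had 1533 and 1313 TPM, Sparc, a matrix protein also made by glia, had 1311 and 1036 TPM, and Dcn, a collagen-binding proteoglycan, had 723 and 593 TPM. The fibrillar collagens Col1a2, with 286 and 176 TPM, and Col1a1, with 229 and 126 TPM, differed more between the pools. Endothelial genes were low but even. Their 16 genes held 0.0285% and 0.0282% of TPM, led by Egfl7 at 50.6 and 52.5 TPM and Cldn5, the tight junction protein of the blood-nerve barrier, at 36.6 and 47.3 TPM. Among pericyte and smooth muscle genes, Rgs5, a pericyte marker, had 96.0 and 103 TPM.

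Marker genes of tissues that a dissection can carry along were at trace levels or absent, and the source of their counts was not tested. Skeletal muscle genes held 0.0355% and 0.0192% of TPM, with Acta1, the muscle actin, at 70.6 and 38.5 TPM. Adipocyte genes held 0.00129% and 0.00410%, most of it from Cfd, at 9.65 and 32.2 TPM. Of 11 genes of the spinal cord and brain, 3 reached 1 TPM in both libraries, the astrocyte genes Aldh1l1 with 8.46 and 9.80 TPM, Aqp4 with 4.32 and 4.87 TPM and Slc1a2 with 1.21 and 1.10 TPM. The genes that define oligodendrocytes and motor neurons were at or near 0, since Olig2, Opalin and Chat had no count in either library and Mog, a myelin protein of oligodendrocytes, had 12 and 10 counts. None of the 8 genes of liver, skin, lung, kidney and pancreas reached 1 TPM in both libraries, and Umod, Ins1 and Ins2 had no count. The sex check matched the stated sex. The Y-linked genes Eif2s3y and Ddx3y had 34.6 and 32.9 TPM and 32.7 and 29.1 TPM, while Xist, the RNA of the inactive X chromosome, had 6 and 8 counts.

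Most genes differed little between the pools. Among the 14570 genes with a mean of at least 1 CPM, 532 (3.65%) differed by over 1.5-fold, 388 (2.66%) higher in replicate 1 and 144 (0.988%) higher in replicate 2. The median size of the log2 difference was 0.10. It depended on the level, since 19.9% of the 1610 genes with 1 to 3 CPM differed by over 1.5-fold, but 0.568% of the 528 genes above 300 CPM. Of the 216 genes of the marker lists with a mean of at least 1 CPM, 57 differed by over 1.5-fold, beside 3.65% of all genes tested. None of the 48 neuronal genes, most of them abundant, and none of the 16 endothelial genes differed by over 1.5-fold, which is near the share of all genes at such levels. In the myelin list 2 of 18 did, Pmp2 and Egr2, both higher in replicate 1. The connective tissue list had 10 of 17 and the muscle list 19 of 20, all of them higher in replicate 1, while the red cell list had 9 of 11 and the neutrophil list 9 of 10, all higher in replicate 2. Of these 9 red cell names, 6 are the globin pairs that share their counts.

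**Figure D3:**
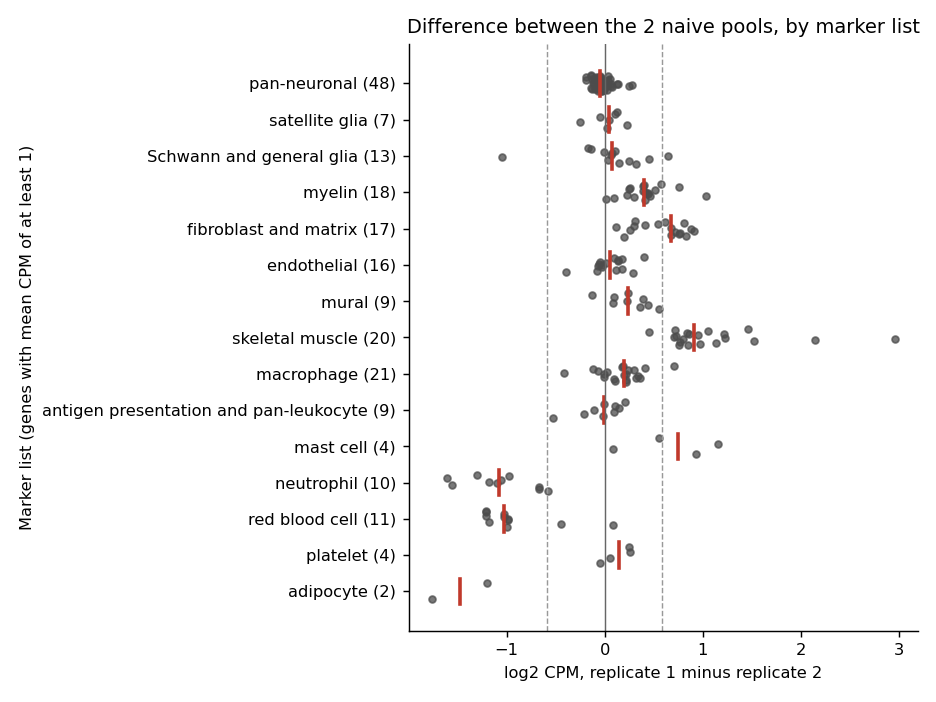
Log2 CPM of replicate 1 minus replicate 2 for each marker gene with a mean of at least 1 CPM, by list, with the list's median in red and dashed lines at 1.5-fold. Neuronal genes cluster near 0, with a median of -0.04, muscle and matrix genes lie to the right, with medians of 0.91 and 0.68, and neutrophil and red cell genes lie to the left, with medians of -1.08 and -1.03.

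The 10 genes that lay farthest apart, among those with a mean of at least 10 CPM, were as follows. Higher in replicate 1 were Myh4, a fast muscle myosin, at 29.6 and 12.7 CPM (2.34-fold), the pseudogene Tmem181b-ps (2.23-fold), Malat1, a nuclear long non-coding RNA, at 217 and 105 CPM (2.07-fold), Fmod, a matrix proteoglycan (2.05-fold), and Egr2 (2.05-fold). Higher in replicate 2 were S100a9 at 13.2 and 32.5 CPM (2.46-fold), Ltf (2.14-fold) and Ngp (2.08-fold), which are neutrophil genes, and the shared Hbb-b1 and Hbb-bs locus (2.04-fold). Malat1 was not alone. In a list of 10 long non-coding RNAs, all 9 with a mean of at least 1 CPM were higher in replicate 1. Among them were Meg3 with 218 and 147 TPM and Neat1 with 25.9 and 14.4 TPM. Of all 14570 genes tested, 6995 were higher in replicate 1. Length moved with the difference, with a median log2 difference of -0.06 for genes of 500 to 1000 bases and 0.10 for genes above 8000 bases. The part of RNA quality, dissection, perfusion and the mice themselves in these gaps was not tested.

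Calca, the precursor of calcitonin gene-related peptide, had 1403 and 1543 TPM and made up 46.7% and 46.9% of the TPM of 20 neuropeptide precursors. Tac1, the precursor of substance P, had 489 and 494 TPM. Nmb had 317 and 386 TPM, Scg2 338 and 355 TPM, and Calcb, the second gene for calcitonin gene-related peptide, 217 and 246 TPM. Adcyap1, the PACAP precursor, had 93.1 and 102 TPM, Gal had 36.3 and 41.4 TPM and Cartpt had 35.3 and 38.0 TPM. The itch peptide genes Sst and Nppb had 25.4 and 25.7 TPM and 18.7 and 20.9 TPM. Npy, which is known to appear in sensory neurons after nerve injury, had 2.12 and 1.33 TPM. Grp, Vip and Tac2 had at most 2 counts in each library, and Pdyn had 2 and 17 counts. All 12 precursors with a mean of at least 1 CPM were higher in replicate 2, with a median log2 difference of -0.16. Of all 14570 genes tested, 7575 were higher in replicate 2.

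Markers of the main neuron classes were all detected. The 6 genes of peptidergic nociceptors held 0.268% and 0.288% of TPM, and the 11 genes of non-peptidergic nociceptors held 0.124% and 0.132%. Ret, the receptor of GDNF signalling, led the latter with 339 and 358 TPM, and Mrgprd, a receptor of polymodal nociceptors, had 148 and 146 TPM. The C low-threshold mechanoreceptors, which sense gentle touch, were represented by Th with 127 and 141 TPM and Tafa4 with 33.4 and 36.6 TPM. The 12 genes of large myelinated neurons held 0.331% and 0.301%, of which Nefh gave 72.6%. In that list Spp1 had 254 and 221 TPM and Pvalb, a calcium buffer of proprioceptors, had 224 and 220 TPM. The median log2 difference in CPM between the pools was between -0.16 and -0.11 for the 3 small-fibre lists and 0.08 for the large-fibre list, and the smallest differences, such as that of Mrgprd, change direction between CPM and TPM. Ret, P2rx3 and Trpv1 among others belong to more than a single list of this account.

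Among voltage-gated sodium channels, the nociceptor channels were the most abundant pore-forming genes. Scn10a, which encodes Nav1.8, had 423 and 441 TPM, and Scn11a, which encodes Nav1.9, had 237 and 241 TPM. Together they made up 60.8% and 63.8% of the TPM of 10 pore-forming genes. These 10 include Scn7a, which the glial list also holds, at 168 and 153 TPM. Scn9a, the Nav1.7 gene linked to inherited pain disorders, had 114 and 106 TPM, and Scn8a and Scn1a, channels of large axons, had 73.0 and 63.7 TPM and 55.5 and 50.9 TPM. Scn3a, an embryonic channel, was lowest with 1.81 and 1.72 TPM, and all 14 genes reached 1 TPM in both libraries.

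Of the TRP channels, Trpv1, the heat and capsaicin receptor, was highest with 102 and 101 TPM. Trpv2 had 71.9 and 78.4 TPM. Trpa1, the irritant receptor, and Trpm8, the cold receptor, lay close to each other at 35.6 and 36.1 TPM and 34.0 and 31.2 TPM without overlap. Trpv3 and Trpm5, a keratinocyte and a taste cell channel, had 9 and 19 counts and 5 and 7 counts. For touch, Piezo2, the mechanically gated channel of touch receptors, had 136 and 123 TPM, and Piezo1 had 4.39 and 3.43 TPM. Among acid-sensing channels Asic3 was highest with 186 and 170 TPM. Hcn2, a pacemaker channel of nociceptors, made up 67.3% and 68.1% of the TPM of the 4 HCN genes, with 203 and 203 TPM. P2rx3, the ATP receptor subunit of nociceptors, made up 65.3% and 68.3% of the 7 P2X genes, with 208 and 229 TPM, whereas its partner P2rx2 had 4.64 and 4.47 TPM.

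Growth factor receptors ranked Ngfr, the shared neurotrophin receptor p75, first with 639 and 691 TPM. Ntrk2, the receptor of brain-derived neurotrophic factor, had 50.9 and 48.6 TPM, and Ntrk3, the receptor of neurotrophin-3, had 24.2 and 20.3 TPM. No neighbours in the order of these 9 receptors overlapped between the pools. Inhibitory receptors were lower. Cnr1, the cannabinoid receptor, had 21.7 and 19.8 TPM, Oprd1 a mean of 12.9 TPM and Oprm1, the target of morphine, 10.7 and 11.5 TPM, whereas Cnr2, known from immune cells, had 0.336 and 0.275 TPM. Of 14 GABA-A receptor subunit genes, 9 reached 1 TPM in both libraries, and Gabra6, a cerebellar subunit, had no count.

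Slc17a7 was the highest of the 13 transmitter genes. This gene, which encodes the vesicular glutamate transporter VGLUT1 of large neurons, had 278 and 265 TPM, and Slc17a6, which encodes VGLUT2, had 137 and 141 TPM. They made up 65.8% and 63.8%, and 32.5% and 34.0%, of the TPM of the 3 vesicular glutamate transporters. Slc32a1, Chat and Slc18a3, which load or make GABA, glycine and acetylcholine, had no count, and Gad2 had 0 and 4 counts. Of the genes for monoamines, Th stood at 127 and 141 TPM, and Tph2 and Ddc also reached 1 TPM in both libraries, with 1.19 and 1.58 TPM and 1.23 and 1.41 TPM, but Dbh, which converts dopamine to noradrenaline and would mark sympathetic neurons, had 2 and 7 counts.

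**Figure D4:**
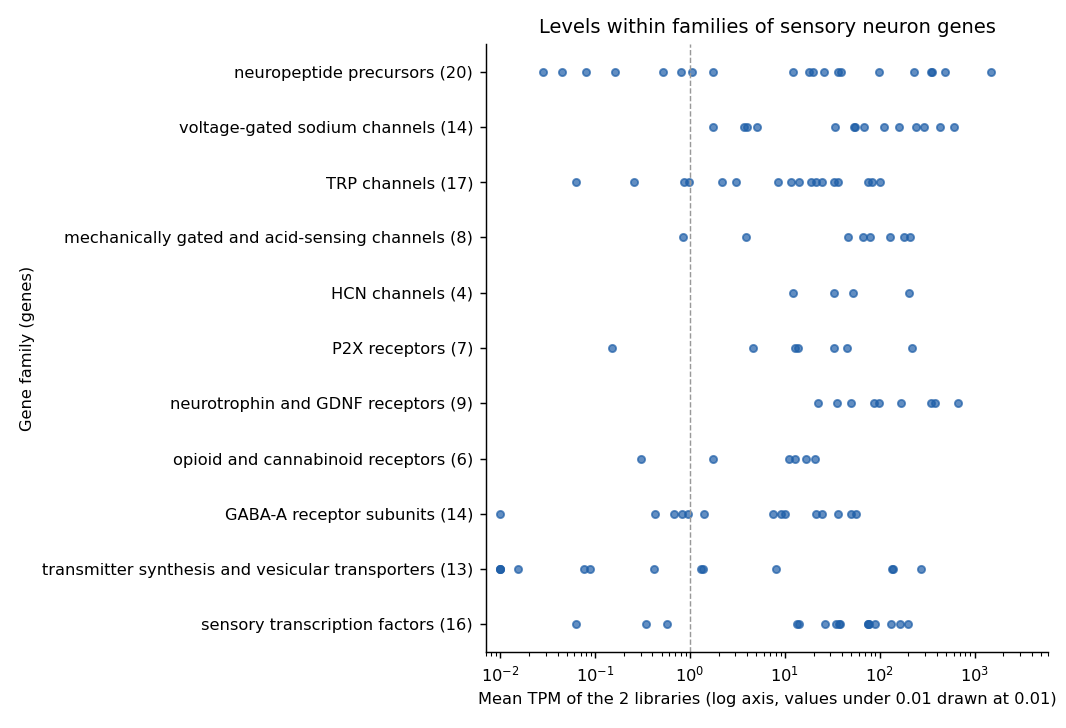
Mean TPM of the 2 libraries for each gene of 11 families of sensory neuron genes, on a log axis with values under 0.01 drawn at 0.01 and a dashed line at 1 TPM. Neuropeptide precursors and transmitter genes span the widest range, from genes at or near 0 to Calca at a mean of 1473 TPM.

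Of 16 transcription factors of sensory identity, 13 reached 1 TPM in both libraries. Tlx3 had 188 and 210 TPM, Pou4f1, also called Brn3a, 160 and 169 TPM, Klf7 132 and 129 TPM, and Isl1 88.1 and 91.2 TPM. The developmental factors Neurod1, Neurog1 and Neurog2, which act while sensory neurons are born, were each under 1 TPM in both libraries. Of the immediate early genes, Jund and Jun were highest with 218 and 230 TPM and 101 and 100 TPM. Fos, which neurons induce within minutes of strong activity, had only 6.41 and 6.25 TPM, and Fosb had 0.865 and 1.03 TPM. Atf3, an injury marker of sensory neurons, had 313 and 601 counts and Egr3 had 359 and 686 counts, and these genes were over 1.5-fold higher in replicate 2, whereas Egr2 was higher in replicate 1.

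Hox genes, which mark the position of a segment along the body axis, were present in the lumbar ganglion up to paralog 11. This family was picked with its values in view. The highest were Hoxa9 with 46.7 and 47.1 TPM, Hoxd8 with 37.3 and 39.4 TPM, Hoxd1 with 33.4 and 36.2 TPM and Hoxa10 with 34.0 and 34.6 TPM. All 18 genes of paralogs 5 to 10 reached 1 TPM in both libraries, as did the 3 genes of paralog 3 and the 4 of paralog 4. The paralog 9 genes, from all 4 clusters, summed to 119 and 114 TPM, the 3 genes of paralog 11 summed to 6.65 and 8.24 TPM, and the 6 genes of paralogs 12 and 13 had no count in either library. Hoxa11 shares 24.8% and Hoxa3 16.4% of their exon length with an antisense gene.

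**Figure D5:**
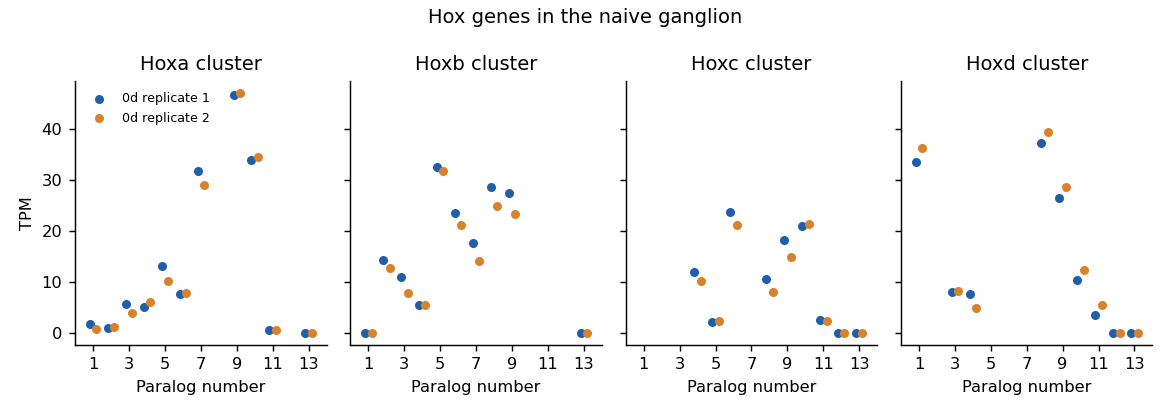
TPM of 39 Hox genes against paralog number, in a panel for each of the 4 clusters, with a point for each 0d library. Hoxa9 reaches 46.7 and 47.1 TPM, Hoxd1 stands at 33.4 and 36.2 TPM, and all genes of paralogs 12 and 13 are at 0.

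Ribosomal and respiratory genes were abundant on the TPM scale. The 86 ribosomal protein genes held 3.38% and 3.47% of TPM, led by Rplp1 with 1385 and 1447 TPM. The 78 nuclear genes of oxidative phosphorylation, that is, of the respiratory chain and ATP synthase, held 2.71% and 2.81%. They were led by Atp5b with 1515 and 1544 TPM. As shares of counts the lists held less, 0.957% and 1.00% for the ribosomal protein genes and 0.919% and 0.963% for oxidative phosphorylation. Both lists were found by name patterns, which also take in relatives of subunits. The lowest means were those of Rpl10l in the first list, at 0 TPM, and Ndufa4l2 in the second, at 4.75 TPM. The median log2 difference in CPM between the pools was -0.07 in both lists. Ndufa4l2, with 3.76 and 5.75 TPM, was also the only gene of both lists that differed by over 1.5-fold. The 18 genes listed as ferritin and abundant housekeeping genes held 3.57% and 3.67% of TPM. The tubulin Tuba1a was highest and gave 11.4% of the list. Also in it were Gapdh with 1903 and 1983 TPM and Actb with 1558 and 1575 TPM. Eef1a2, the neuronal and muscle form of the elongation factor, had 1960 and 1975 TPM, close to the 2286 and 2273 TPM of the general form Eef1a1.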

How the data were processed

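RNA of whole L3 to L5 ganglia was sequenced in 2 libraries of naive mice. The authors used cutadapt 2.10 for trimming, STAR 2.7.5a for alignment to mm10 and counted pairs on exons of UCSC genes with featureCounts 2.0.1, and the deposited values are these raw counts, without normalization. Pairs that touched several genes were counted for each, multi-mapped pairs were not counted, and strand was ignored. The count columns of 6 later libraries were not used. The deposited exon length gave TPM, and library totals gave CPM.

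The genes named are the 25 of highest TPM, the 10 of highest CPM, up to 5 leading members of each list, whole families of up to 20 genes, the 10 genes farthest apart between pools and the sex-linked genes. Some genes that these rules name, and the results that need them, are not reported here. Other genes named were chosen after their values were seen. Members and lists were chosen with earlier results of these data known. Of 452 listed genes, 447 were in the table, 4 under an older symbol. Mitochondria-encoded genes are not analysed here.

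No test was run, since there is 1 group of 2 pools. Intervals are 95% Wilson intervals for counting error. Nothing in the labels says whether the pools were extracted together. Alternative lengths came from the longest GENCODE M21 transcript, found for 95.7% of genes, or from the length less an assumed fragment of 200 bases, without genes under 300 bases. Scaling alternatives used edgeR 4.0.16 and DESeq2 1.42.0. Calculations used Python 3.11.15, pandas 2.3.3 and R 4.3.3, and the scripts were tested on simulated counts.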

Additional observations from a re-analysis of the deposited data

How the results depend on the processing

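No paired analysis was possible because there was only 1 group of 2 libraries and no test. The neuronal share of TPM, 5.46%, was 5.28% as a share of counts, 5.19% with the longest transcript as length, 5.55% with an effective length, 5.65% without ribosomal protein genes in the total, 4.72% without genes that share over 10% of their exon length and 4.56% without Nefl. Each of these steps exceeds the SD of 0.016 between the pools. The glial share, 0.708%, was 0.568% as a share of counts, 0.814% with the longest transcript, 0.733% without ribosomal protein genes, 0.784% without overlapping genes and 0.331% without Apoe. The myelin share, 1.07%, stayed within its SD of 0.248 under the other lengths, as a share of counts, without ribosomal protein genes and without overlapping genes. The blood share, 0.114%, was 0.0459% as a share of counts and 0.00785% without overlapping genes, which removes every globin name. It was 0.0690% with a single name kept for each pair with shared counts, an alternative chosen after seeing the data. The immune share, 0.147%, was 0.0736% as a share of counts, 0.168% with an effective length, 0.163% without overlapping genes and 0.123% without Cd74. With a single library left, the neuronal share ranged from 5.45% to 5.47%, the glial from 0.692% to 0.723%, the myelin from 0.893% to 1.24%, the blood from 0.0830% to 0.144% and the immune from 0.140% to 0.154%. The order of blood and immune genes was not the same with each length, since blood held 0.153% and immune genes 0.148% with the longest transcript, and in replicate 1 and 2 alone immune genes were the higher.

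The number of genes over 1.5-fold apart between the pools, 532, was 537 with TMM and 541 with DESeq2 size factors, 2463 with no filter beyond 1 count in each library, 75 at a mean of at least 10 CPM and 118 at a fold of 2. Genes at 1 TPM or more in both libraries numbered 14824 and 14491 with the other lengths, and 15713 and 12010 at thresholds of 0.5 and 5 TPM. With the longest transcript as length, in which Nefl has 3380 bases, Nefl was at rank 4 and Snurf came first with 10636 and 10791 TPM. The lengths of other named genes differ more. P2rx3 has 1812 bases in its longest transcript against 4190 deposited, and Klf7 has 7662 against 1336. Their levels and shares are given above with the deposited length only. At this depth, genes with few counts have the widest counting error.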

Other observations

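Some gene families were looked at after their values were seen, and they are given as values only. Potassium channels were broadly expressed in the untreated ganglion, with 74 of 92 genes at 1 TPM or more in both libraries and 0.373% and 0.377% of TPM in all. Kcnab2, an auxiliary subunit, was the highest with 840 and 857 TPM. Among pore-forming genes Kcna1 had 219 and 196 TPM, Kcnd1 169 and 183 TPM and Kcna2 134 and 119 TPM. Kcna1 and Kcna2 are known from the juxtaparanodes of myelinated axons. Kcnk18, the TRESK channel linked to migraine, had 13.2 and 14.1 TPM.

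Of 26 genes of voltage-gated calcium channels, Cacnb3, an auxiliary beta subunit, was highest with 312 and 346 TPM. The pore-forming genes were led by Cacna1a with 55.7 and 49.8 TPM and Cacna1b, the N-type channel gene, with 53.2 and 48.4 TPM. Cacna2d1, the target of gabapentin, had 78.8 and 80.4 TPM, and Cacna1h, a T-type channel of touch and pain neurons, had 24.2 and 25.1 TPM. Cacna1s, a channel of skeletal muscle, had 0.988 and 0.354 TPM.

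Mrgprd led the 20 Mrgpr genes, with Mrgprx1 at 37.8 and 34.9 TPM and Mrgpra3, a receptor for chloroquine itch, at 22.4 and 25.7 TPM. Mrgprb2, the receptor of mast cells, had 10 and 2 counts.

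Of 1107 olfactory receptor genes, 1037 had no count in either library, and only Olfr920 reached 1 TPM in both, with 3.18 and 2.57 TPM. Of 330 vomeronasal receptor genes, 304 had no count, and only Vmn2r29 reached 1 TPM in both, with 1.76 and 1.77 TPM. Both families have many near-identical copies, from which multi-mapped pairs were not counted.

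All but 1 of the 38 collagen genes with a mean of at least 1 CPM were higher in replicate 1, with a median log2 difference of 0.61. Of all 14570 genes tested, 6995 were higher in replicate 1. Of the collagen genes, 21 were higher by over 1.5-fold, beside 2.66% of all genes tested that were that much higher in replicate 1.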
